A study of Mus musculus with 4 samples.

Results

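Astrocyte nuclei were examined in single-nucleus RNA sequencing of cortex together with hippocampus, taken from mice at 5 weeks of age. Members were chosen by their own UMI counts: at least 3 of 8 astrocyte genes (Gli3, Aqp4, Gja1, Etnppl, Acsbg1, Ntsr2, Aldh1l1 and Atp13a4) had to have a UMI, meaning a molecule counted once by its molecular barcode. A member also had to carry no Pdgfra UMI, no Mog or Mag UMI, and at most 1 UMI over Slc17a7, Gad1 and Gad2. Nuclei entered with over 600 detected genes and under 5% of UMIs from mitochondrial genes, and of 36094 such nuclei 1349 were members. The libraries came from C57BL/6J mice of 2 genotypes, with 2 mice, hence 2 libraries, in each. Sel1L flox/flox mice carry loxP sites in both copies of Sel1l, the adaptor of the HRD1 ubiquitin ligase in endoplasmic reticulum (ER)-associated degradation, and served as littermate controls. Sel1L Syn-Cre mice carry the same floxed alleles together with Cre driven by the Synapsin I promoter, which is active in neurons. Replicate 1 of each genotype was male and replicate 2 female by Ddx3y and Xist, and no other treatment was given.

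Astrocytes tile the gray matter, clear glutamate and potassium from around synapses, pass lactate, glutamine and lipids to neurons, and contact blood vessels through endfeet rich in the water channel aquaporin-4. They hold much glucocorticoid receptor and respond to corticosterone with transcription of a well-known group of genes, among them the receptor co-chaperone Fkbp5 and the metallothioneins. They also run a circadian clock in which ARNTL with CLOCK or NPAS2 drives the genes of their own repressors and of the output factor DBP. Since Cre was placed under a neuronal promoter, the comparison asks how nuclei of a neighboring cell type differ between mice with and without neuronal Sel1l deletion.

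Astrocyte nuclei were shallow compared with neurons. The median UMI count was 3303 and 3246 in the Sel1L flox/flox libraries and 3418 and 3293 in the Sel1L Syn-Cre libraries, so depth per nucleus was similar across mice, whereas neuron nuclei had a median of 12697. Over all their nuclei the 4 astrocyte libraries held 1122979, 664641, 2528347 and 926590 UMIs, in the order flox/flox replicates 1 and 2, Syn-Cre replicates 1 and 2, which is also the order of every list of 4 values hereafter. CPM are UMI counts scaled to a common total over the UMIs of the nuclei concerned. They are plain CPM for marker levels, summed marker lists, nuclei by marker number and Sel1l, and CPM with a TMM-scaled total (edgeR's correction for library composition) for the genes compared between the genotypes further on. Any pair of libraries shared between 9 and 32 cell barcodes among all barcodes deposited. Scrublet, a doublet caller, gave its highest scores to 10, 8, 31 and 12 of the members, and these were retained.

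Genes outside the rule bore out the name. Slc1a2 and Slc1a3, the astrocytic glutamate transporters, stood at 6620 and 1990 CPM, against 272 and 7.69 CPM in neuron nuclei and 276 and 245 CPM in oligodendrocyte precursor cell (OPC) nuclei. Glul, glutamine synthetase, reached 818 CPM, compared with 10.8 in neurons and 31.1 in OPCs. The astrocyte-fate factor Sox9 was at 136 CPM, and Gpc5, a glypican, was at 7750 CPM, although OPC nuclei also held 4180 CPM of it. These 3' tag counts are not scaled by length, and the levels are comparable for a gene between nuclei rather than between genes. Of the members, 97.7% had a Slc1a3 UMI and 99.6% a Slc1a2 UMI. Gfap, the intermediate filament of white-matter and reactive astrocytes, was present in 32.6%. Neurons had 12970 nuclei by their own markers and OPCs 1034.

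The level of Slc1a3 rose across the marker threshold, and by a larger factor below it, between 1 and 2 markers. Among nuclei with 1 marker, 22.4% had a Slc1a3 UMI and its level was 99.8 CPM. Among nuclei with exactly 2 markers, just outside the rule, 71.6% of 236 had a Slc1a3 UMI and its level was 888 CPM. Among the 232 with exactly 3, just inside, the share was 94.8% and the level 1840 CPM, and from there it was 1860, 1890, 2070 and 2200 CPM with 4, 5, 6 and 7 markers and 2300 CPM in the 42 nuclei with all 8. Inside the rule, RNA of other cells remained. Beside each sum stands the gene with the most UMIs over all libraries together. The summed level of 8 neuron markers was 1700, 1860, 1510 and 2910 CPM (top gene Meg3). That of 8 oligodendrocyte markers was 705, 492, 345 and 321 CPM (Mbp). That of 6 OPC markers, Vcan among them, was 183, 184, 77.5 and 137 CPM (Tnr). The defining OPC gene Sox10 had 1, 0, 4 and 0 UMIs. Microglial markers summed to 126, 76.7, 131 and 87.4 CPM (P2ry12) and endothelial and mural markers to 182, 311, 239 and 175 CPM (Pdgfrb). Ependymal, choroid plexus and progenitor markers summed to 200, 91.8, 300 and 411 CPM (Ttr). Oligodendrocyte RNA was thus higher in both flox/flox libraries and ependymal or choroid RNA in both Syn-Cre libraries, and counts of calls without such nuclei are given below.

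**Figure D1:**
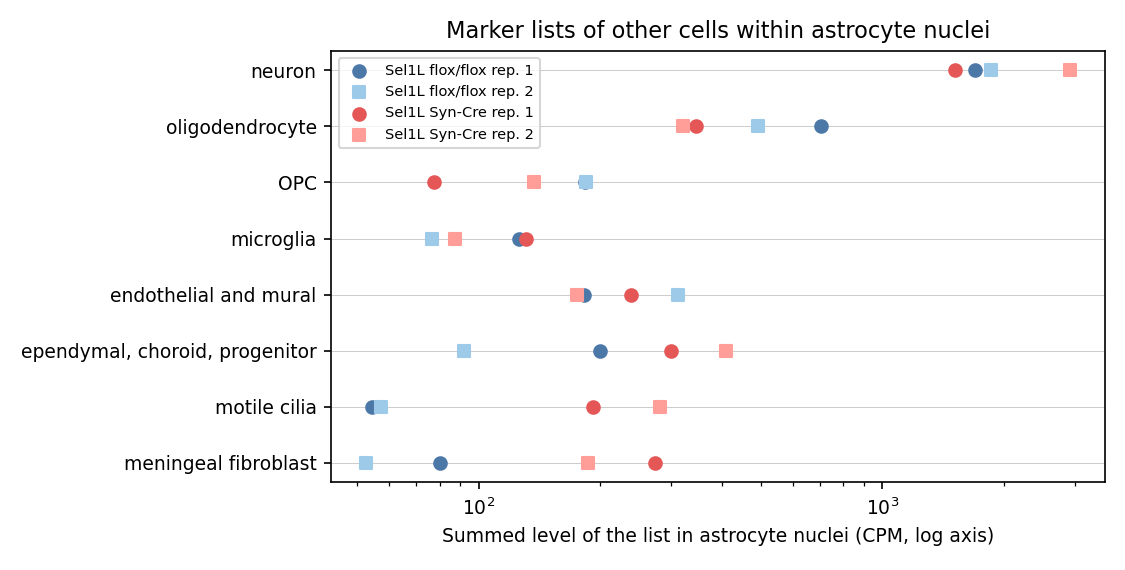
Summed level in CPM (log axis) of marker lists of other cell types within astrocyte nuclei, a point per library. The oligodendrocyte sums of the Sel1L flox/flox libraries (705 and 492 CPM) lie above those of the Sel1L Syn-Cre libraries (345 and 321 CPM), and the motile cilia sums lie the other way (54.3 and 57.2 against 192 and 281 CPM).

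Cre and Sel1l were examined first. The deposited reference included a Cre transgene, and astrocyte nuclei held 2, 0, 2 and 0 Cre UMIs. Neuron nuclei held 309, 0, 148 and 189, so the library labelled Sel1L flox/flox replicate 1 carried Cre UMIs, against its label. OPC nuclei held 25, 0, 17 and 9. For this reason the count of all calls and that of the glucocorticoid-responsive list are also given without it. Of the other lists described below, the serine, glycine and folate list (1 gene higher) then had 0 calls (edgeR), the receptor and calcium list (0 calls) had 1 higher and 1 lower, and the glycogen, glucose and lactate list (0 calls) had 1 higher. Sel1l itself stood at 86.4, 72.2, 87.4 and 85.3 plain CPM in astrocyte nuclei, with overlapping genotypes and a log2 fold change of 0.10 ± 0.20 (SE; edgeR quasi-likelihood test, adjusted p = 0.922). In neuron nuclei, where Cre is driven, it was 94.8, 89.9, 152 and 130 plain CPM, higher in both Syn-Cre libraries (log2 fold change 0.56, adjusted p = 0.0981), and in OPC nuclei 103, 85.5, 404 and 181. Tags at the 3' end do not show whether the floxed exon was removed, so these levels do not report on the deletion. The genotype difference in Sel1l was smaller in astrocytes than in OPCs by 1.49 log2 units (interaction, adjusted p = 0.0156).

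The share of astrocyte nuclei was larger in both Sel1L Syn-Cre libraries, mostly through a single mouse, in a design too small to pass the test. Members made up 2.48% of kept nuclei in flox/flox replicate 1 (306 of 12362; 95% Wilson interval 2.22 to 2.76), 2.07% in replicate 2 (175 of 8436; 1.79 to 2.40), 7.97% in Syn-Cre replicate 1 (643 of 8065; 7.4 to 8.58) and 3.11% in replicate 2 (225 of 7231; 2.74 to 3.54). The genotypes did not overlap, with means of 2.27% ± 0.283 and 5.54% ± 3.44 (SD, n = 2 each). The difference of 3.27 percentage points had a two-sided exact permutation p of 0.333, the smallest that 2 against 2 mice allow, and it was 0.837 points without Syn-Cre replicate 1. As a percentage of nuclei that were not neurons, the shares were 3.89%, 3.05%, 12.2% and 5.26%. Such shares depend on dissection and sorting as well as on tissue, and the parts of each were not tested.

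**Figure D2:**
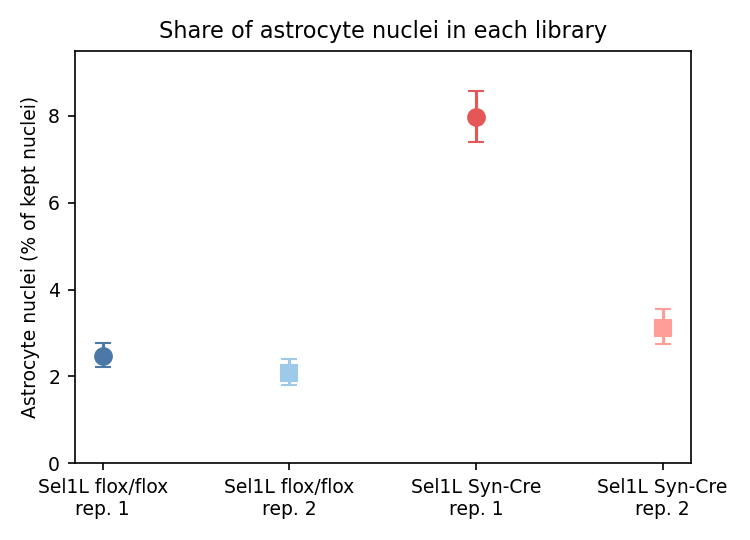
Astrocyte nuclei as a percentage of kept nuclei in each library, with 95% Wilson intervals that cover counting error only. Sel1L Syn-Cre replicate 1 stands at 7.97%, and the other 3 libraries lie between 2.07% and 3.11%.

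UMIs of the members were summed for each library and compared between the genotypes. Of 10845 genes tested, 74 were higher (0.682% of genes) and 26 lower (0.24%) in Sel1L Syn-Cre astrocyte nuclei at an adjusted p under 0.05 (edgeR). For scale, 20.3% of all genes tested had both Syn-Cre libraries above both flox/flox libraries and 20.6% had them below, while 6.09% were higher and 4.78% lower at an unadjusted p under 0.05. Counts of this kind for astrocyte lists stand against these shares. The count rested on few mice: without Syn-Cre replicate 2 no gene passed (956 genes had an unadjusted p under 0.05, and all 100 kept their direction), without Syn-Cre replicate 1 361 passed, and without flox/flox replicate 1, the library with Cre UMIs, 62 passed, 43 of them among the 100. In a fit with 1 library in a genotype, that library is assumed to vary like the others. Leaving out the 323 members with UMIs of at least 2 oligodendrocyte markers (103, 46, 133 and 41 of the nuclei) left 9 calls, 8 higher and 1 lower (Vcan), all of them among the 100. The 93 of the 100 that could still be tested kept their direction there.

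**Figure D3:**
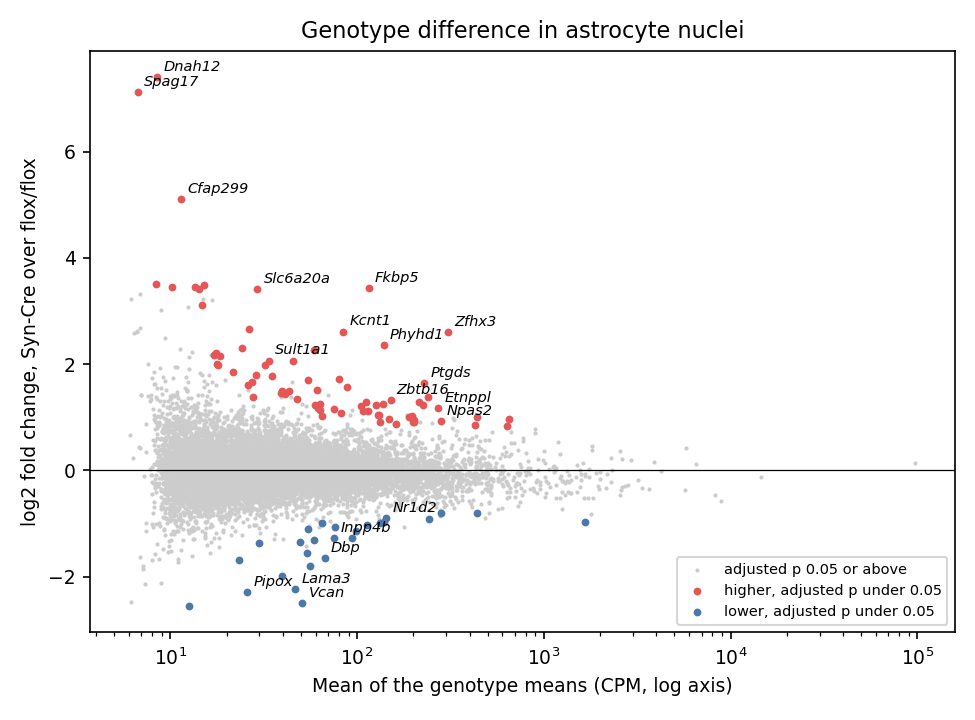
log2 fold change of each of 10845 genes in astrocyte nuclei (Sel1L Syn-Cre over Sel1L flox/flox) against its mean level in CPM (log axis), with genes at an adjusted p under 0.05 in color. The 74 higher genes reach farther from 0 than the 26 lower genes, and Zfhx3, Fkbp5, Kcnt1 and Phyhd1 combine a high level with a large change.

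The change best separated from the replicate spread was in Zfhx3, an exceptionally large homeobox and zinc-finger transcription factor (chr8:107942644-108961630, plus strand, GRCm38). Its level was 81.1, 91.2, 453.7 and 595 CPM. Both Syn-Cre libraries lay far above both controls, with a log2 fold change of 2.61 ± 0.20 (adjusted p = 5.204e-05). Without Syn-Cre replicate 2 it was 2.41 (adjusted p = 0.0681), and without the nuclei carrying oligodendrocyte RNA 2.58 (adjusted p = 0.00194). OPC nuclei showed 102, 67.4, 76.7 and 73.0 CPM of Zfhx3, and the difference between the cell types in genotype effect was 2.77 log2 units (interaction, adjusted p = 5.015e-05). Lncbate1, a long noncoding RNA on the other strand inside the Zfhx3 locus, was at 3.69, 0, 21.2 and 31.9 CPM (log2 fold change 3.42, adjusted p = 0.0211). Whether counting used strand is not given in the sources used here, so the pair cannot be told apart.

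Kcnt1, a sodium-activated potassium channel, stood at 21.2, 26.3, 114 and 175 CPM, with no overlap and a log2 fold change of 2.61 ± 0.27 (adjusted p = 5.598e-04). In neuron nuclei its levels were 62.6, 62.1, 55.8 and 66.6 CPM. It was the only gene of 19060 tested (0.00525%) whose genotype difference in astrocytes departed from that in neurons, by 2.65 log2 units (adjusted p = 0.0355), and this interaction was no longer called when any library was left out. Phyhd1, a phytanoyl-CoA dioxygenase domain protein, was at 36.9, 55.6, 229 and 233 CPM (log2 fold change 2.35 ± 0.22, adjusted p = 2.758e-04). Slc24a4, a potassium-dependent sodium-calcium exchanger, was at 26.7, 10.8, 87.9 and 108 CPM (2.27, adjusted p = 0.00470), and Prom1, the membrane-protrusion protein prominin 1, at 33.2, 41.7, 114 and 131 CPM (1.72, adjusted p = 0.00357). All 4 genes were clear of overlap and stayed called without oligodendrocyte RNA, with adjusted p from 0.00796 (Phyhd1) to 0.0420 (Slc24a4). Txnip, an inhibitor of thioredoxin, and Selenop, the selenium carrier selenoprotein P, were also higher, by 2.06 and 1.25 on the log2 scale (adjusted p = 0.0318 and 0.0192), and lost the call in that subset (adjusted p = 0.122 and 0.261). Kcnt1 came from the rule for interactions, and Zfhx3 as well, while Phyhd1, Slc24a4, Prom1, Txnip and Selenop were picked after their values were seen.

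Of 19 glucocorticoid-responsive genes tested, 3 were higher and none lower, against 0.682% and 0.24% of all genes. Fkbp5, the co-chaperone that lowers the hormone affinity of the glucocorticoid receptor and is itself induced by it (chr17:28399094-28517527, minus strand), had the largest change of the list. Its level was 11.98, 29.4, 152.6 and 266.7 CPM, the log2 fold change 3.42 ± 0.36 and the adjusted p 5.598e-04. Every Syn-Cre value exceeded every control value, and leaving out flox/flox replicate 1, Syn-Cre replicate 1 or Syn-Cre replicate 2 gave 2.81, 3.78 and 2.99, the last with an adjusted p of 0.122. Sult1a1, a phenol sulfotransferase, was at 11.1, 15.5, 52.3 and 56.3 CPM (2.06 ± 0.30, adjusted p = 0.00618). Zbtb16, the zinc-finger factor PLZF, was at 64.5, 111, 226.5 and 202 CPM (1.32 ± 0.23, adjusted p = 0.0192). These genotypes did not overlap either, and without oligodendrocyte RNA Fkbp5 and Sult1a1 stayed past the threshold and Zbtb16 had an adjusted p of 0.0639.

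Promoter sequences of 3 genes of the list, chosen after values were seen, are shown: Fkbp5 and Sult1a1, which were called, and the metallothionein gene Mt1, which was not (adjusted p = 0.0566) and whose window holds a match. Each runs from 250 bases before to 50 after the RefSeq transcript start (GRCm38.p6), 5′ to 3′ on the gene's strand, and capitals mark matches to the palindromic core of the glucocorticoid receptor's element, searched as G, any base, ACA, any 3 bases, TGT, any base and C, which reads alike on both strands. The windows are chr17:28486100-28486399 (minus), chr7:126676369-126676668 (minus) and chr8:94178839-94179138 (plus).
Fkbp5: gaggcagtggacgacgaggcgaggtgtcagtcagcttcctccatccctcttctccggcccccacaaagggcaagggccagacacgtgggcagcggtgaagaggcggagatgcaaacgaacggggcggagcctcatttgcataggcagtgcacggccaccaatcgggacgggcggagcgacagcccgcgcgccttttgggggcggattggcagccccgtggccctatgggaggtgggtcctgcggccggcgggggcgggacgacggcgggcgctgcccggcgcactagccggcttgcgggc
Sult1a1: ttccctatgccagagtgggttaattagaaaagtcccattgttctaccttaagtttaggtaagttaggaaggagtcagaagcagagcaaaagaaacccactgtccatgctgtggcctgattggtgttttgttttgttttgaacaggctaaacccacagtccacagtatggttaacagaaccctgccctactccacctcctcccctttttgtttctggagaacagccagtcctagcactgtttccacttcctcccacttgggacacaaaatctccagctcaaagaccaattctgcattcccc
Mt1: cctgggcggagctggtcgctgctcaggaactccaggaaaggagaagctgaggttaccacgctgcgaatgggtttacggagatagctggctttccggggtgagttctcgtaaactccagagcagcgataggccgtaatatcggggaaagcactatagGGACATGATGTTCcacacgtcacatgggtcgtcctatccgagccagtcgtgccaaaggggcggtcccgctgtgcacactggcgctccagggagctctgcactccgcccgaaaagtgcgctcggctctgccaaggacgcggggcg
The Mt1 window held 1 match, at its bases 157 to 169, and the other windows none. Over all RefSeq promoter windows of this length, 156 of 32851 (0.475%) held the motif, and within the list 18 of 20 genes had windows and 2 of their 30 windows held it, those of Mt1 and of Sgk1. A letter match is no evidence of binding, and the windows leave out introns and distant elements.

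The other 16 genes of the list did not pass, and with a block on replicate number, which here is also sex, 7 of the 19 were higher. Of the 19 genes tested, 16 had both Syn-Cre libraries above both controls, against 20.3% of all genes, and 15 had an unadjusted p under 0.05 with a positive change, against 6.09%, and 2 a negative change, against 4.78%. The median log2 fold change was 0.865, with 0.00309 over all genes tested. Mt1, a metal-binding metallothionein, was at 374, 524, 780 and 851 CPM (0.86, adjusted p = 0.0566). Tsc22d3, the anti-inflammatory mediator GILZ, was at 57.1, 89.6, 131 and 149 CPM (0.95, adjusted p = 0.0768). Both ran in step across libraries with Fkbp5, lowest in flox/flox replicate 1 and highest in Syn-Cre replicate 2. Ddit4, an inhibitor of mTORC1 that is also in the list of ATF4 targets described below, was at 19.4, 20.1, 44.8 and 41.4 CPM (1.14, adjusted p = 0.0900), whereas the receptors themselves had lower values in Syn-Cre, Nr3c1 at 242, 186, 156 and 143 CPM (adjusted p = 0.307) and Nr3c2 at 430, 403, 343 and 289 CPM (adjusted p = 0.416). Counts of calls in the list were 3, 6, 9 and 0 when flox/flox replicate 1, flox/flox replicate 2, Syn-Cre replicate 1 and Syn-Cre replicate 2 were left out, and the median without flox/flox replicate 1 was 0.632. The median mitochondrial percentage of the nuclei, 0.173, 0.200, 0.263 and 0.311, followed the same order of libraries as Fkbp5, Mt1 and Tsc22d3, and its part in these values was not tested.

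Detection per nucleus was compared at equal depth. After each member was thinned to 2000 UMIs, with 27, 16, 46 and 18 shallower nuclei left out, Fkbp5 was detected in 1.43%, 5.03%, 20.3% and 37.2% of nuclei (2.94%, 7.43%, 33.0% and 50.2% before thinning). Its share in OPC nuclei was 8.16%, 12.8%, 27.7% and 29.2%, and in neurons, whose median depth before thinning was 12697 UMIs, 7.37%, 6.71%, 10.7% and 15.0%. Mt1 was detected in 42.7%, 59.1%, 67.8% and 74.4% of thinned astrocyte nuclei, and Zbtb16 in 11.8%, 18.9%, 29.3% and 32.9%. The shares of Mt1 were 6.12%, 8.39%, 10.6% and 20.5% in OPCs and 2.86%, 3.56%, 4.45% and 5.22% in neurons. Those of Zbtb16 were 8.5%, 13.1%, 19.1% and 25.4% in OPCs and 26.0%, 30.3%, 33.9% and 33.0% in neurons. In all 3 genes the Syn-Cre libraries were above both controls, and 0.333 is the exact permutation p of each. At the summed level, OPC nuclei had 8 of 15 tested genes of the list higher (over all genes 4.42% were called, 2.17% higher and 2.26% lower), with a median of 0.860, and neuron nuclei 0 of 19 (edgeR; 10 higher and 1 lower at an unadjusted p under 0.05; over all 19231 genes 0.192% were called higher and 0.0416% lower, and 1316 were higher and 1076 lower at an unadjusted p under 0.05), with a median of 0.264. These comparisons share all 4 mice. Fkbp5 rose by 1.97 log2 units more in astrocytes than in OPCs (adjusted p = 0.00375), and Hif3a by 3.58 units less (adjusted p = 2.914e-04), being at 153, 286, 290 and 371 CPM in astrocytes and 3.71, 7.58, 54.8 and 176 CPM in OPCs.

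Circadian clock genes, a list added after values were seen, had 1 call higher and 2 lower among 18 tested (0.682% and 0.24% of all genes), and 4 higher and 7 lower at an unadjusted p under 0.05 (6.09% and 4.78% of all genes). Dbp, the PAR-bZIP output factor, was at 123, 78.8, 28.6 and 38.3 CPM, a log2 fold change of -1.65 ± 0.26 (adjusted p = 0.0107). Nr1d2, the repressor REV-ERBβ, was at 206, 165, 96.6 and 105 CPM (-0.89 ± 0.19, adjusted p = 0.0409), and Npas2, the partner of ARNTL, at 195, 190, 396 and 338 CPM (0.93 ± 0.17, adjusted p = 0.0220). No genotype values overlapped in these 3 genes. Without oligodendrocyte RNA none of them passed (-1.54, -0.97 and 0.95, with adjusted p of 0.0639, 0.109 and 0.122), nor did any without Syn-Cre replicate 2 (adjusted p = 0.204, 0.322 and 0.204), and without flox/flox replicate 1 only Dbp did (adjusted p = 0.0475). Arntl, the main activator, and 2 further repressors did not pass: Arntl at 70.0, 72.6, 139 and 93.5 CPM, Per3 at 339, 366, 243 and 218 CPM and Nr1d1 at 48.8, 35.6, 24.5 and 20.2 CPM, with adjusted p of 0.202, 0.145 and 0.204. In OPC nuclei 1 of 16 clock genes was higher and 2 lower (2.17% and 2.26% of all genes): Arntl (1.19, adjusted p = 9.919e-04) was higher, and Nr1d2 (-0.67, adjusted p = 0.0338) and Tef, a PAR-bZIP factor related to DBP (-0.87, adjusted p = 0.00207), were lower. In neuron nuclei 0 of 18 passed (edgeR; 0.192% of all genes were higher and 0.0416% lower), with a median of 0.00785. At an unadjusted p under 0.05, 4 were higher there and 2 lower (1316 and 1076 of all 19231 genes). The hour of collection of each mouse is not given in the sources used here, and its part in these values was not tested. Dbp overlaps Sphk2 on the other strand.

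**Figure D4:**
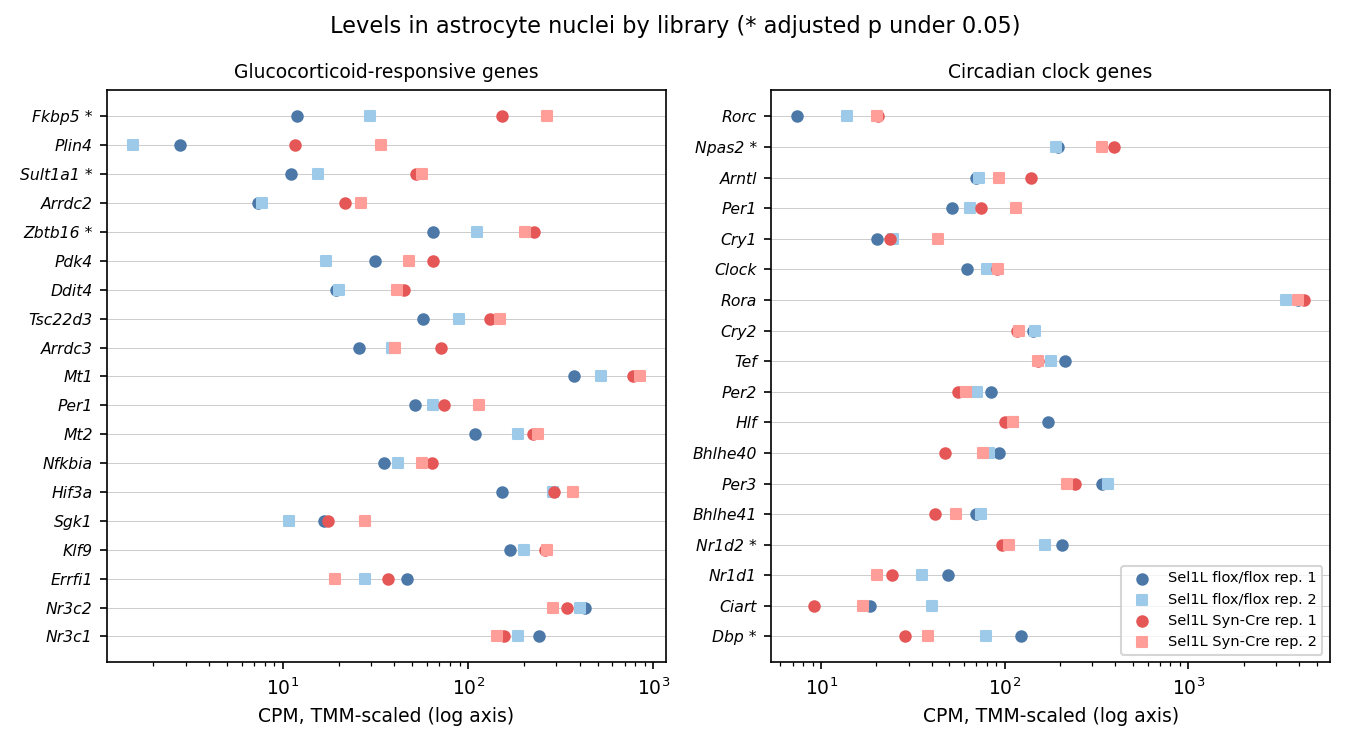
Levels in CPM (TMM-scaled, log axis) of the glucocorticoid-responsive genes and of the circadian clock genes in astrocyte nuclei, a point per library, ordered by log2 fold change, with an asterisk for an adjusted p under 0.05. In 16 of 19 glucocorticoid-responsive genes both Sel1L Syn-Cre points lie to the right of both Sel1L flox/flox points.

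ER quality control genes, the machinery that senses and refolds or degrades unfolded secretory proteins, showed no call in astrocyte nuclei. Of 26 tested, 0 passed by edgeR's quasi-likelihood or likelihood ratio test or by DESeq2 (4 had an unadjusted p under 0.05, all higher), and the median log2 fold change was 0.131. Both Syn-Cre libraries lay above both controls in 6 of the 26 and below in 1 (20.3% and 20.6% of all genes). Without Syn-Cre replicate 1 the median log2 fold change was 0.0145, and with any other library left out it lay between 0.114 and 0.174. Hspa5, the ER chaperone BiP, was at 40.6, 43.3, 92.1 and 56.3 CPM (0.86 ± 0.26, adjusted p = 0.196), and Calr, the lectin chaperone calreticulin, at 30.4, 27.8, 64.3 and 41.4 CPM (0.89 ± 0.28, adjusted p = 0.212). Herpud1, a component of the degradation complex, was at 49.8, 43.3, 65.5 and 47.8 CPM and its genotypes overlapped. In OPC nuclei 17 of 29 were higher (2.17% of all genes; median 1.21) and in neuron nuclei 7 of 29 (0.192% of all genes; median 0.666). The genotype difference was smaller in astrocytes than in OPCs for 8 of 29 genes (0.58% of 12079 genes tested), among them Hspa5 by 1.40, Hsp90b1 by 1.77 and Herpud1 by 1.36 log2 units (adjusted p = 0.0214, 0.00108 and 0.0359). Between astrocytes and neurons 0 of 29 passed, against 1 of all 19060 genes (edgeR). At an unadjusted p under 0.05, 0 of the 29 had a larger and 13 a smaller difference in astrocytes. Of all 19060 genes, 1491 passed that mark in either direction. DESeq2 called 42, a count over all genes rather than over this list. Derl3, a derlin induced by the unfolded protein response, had 1, 1, 8 and 3 UMIs in astrocytes, too few to test, and 34, 18, 643 and 437 in neurons.

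Targets of ATF4, the transcription factor of the integrated stress response, had no call in astrocytes either. Of 14 tested, 0 passed by edgeR's quasi-likelihood test or DESeq2 and 1 by the likelihood ratio test (2 higher and 1 lower at an unadjusted p under 0.05), with a median of 0.271. With 0.682% of all genes called higher, 0 of 14 is near that share and does not show that a response was absent. Both Syn-Cre libraries lay above both controls in 6 of the 14 and below in 2 (20.3% and 20.6% of all genes). In OPCs 14 of 16 were higher (2.17% of all genes; median 2.38). In neurons 1 of 24 was (0.192% of all genes), with a median of 0.535, 18 higher at an unadjusted p under 0.05 (1316 of all 19231) and 22 with both Syn-Cre libraries above both controls (22.5% of all). Nupr1, a small stress-induced chromatin protein, had 11, 7, 33 and 10 UMIs in astrocytes, or 10.1, 10.8, 13.7 and 10.6 CPM, and 1, 0, 113 and 76 UMIs in OPCs. Slc7a5, the large neutral amino acid transporter, was at 14.8, 32.5, 23.6 and 26.6 CPM in astrocytes and at 8.16, 6.74, 152 and 99.1 CPM in OPCs. For both, the genotype effects of the cell types differed (adjusted p = 5.015e-05 and 2.509e-04), as for 9 of 19 genes of the list, all smaller in astrocytes (0.58% of all genes). Serine, glycine and folate genes had 1 of 21 higher in astrocytes (0.682% of all genes), Cbs, cystathionine beta-synthase of transsulfuration (121, 156, 247 and 270 CPM, 0.91 ± 0.19, adjusted p = 0.0362), and 9 of 22 higher in OPCs (2.17% of all genes). Cbs lost its call without flox/flox replicate 1 (adjusted p = 0.286), without Syn-Cre replicate 2 (0.362) and without oligodendrocyte RNA (0.160), and also with at least 2 or 4 markers required, without the highest Scrublet scores and without nuclei with Agt, Zic1 or Zic4 UMIs. Phgdh, the first enzyme of serine synthesis, was at 70.0, 64.9, 83.8 and 71.2 CPM in astrocytes (adjusted p = 0.807) and at 9.65, 11.0, 61.8 and 32.6 CPM in OPCs, and its effects differed by 2.01 log2 units (adjusted p = 0.00807).

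**Figure D5:**
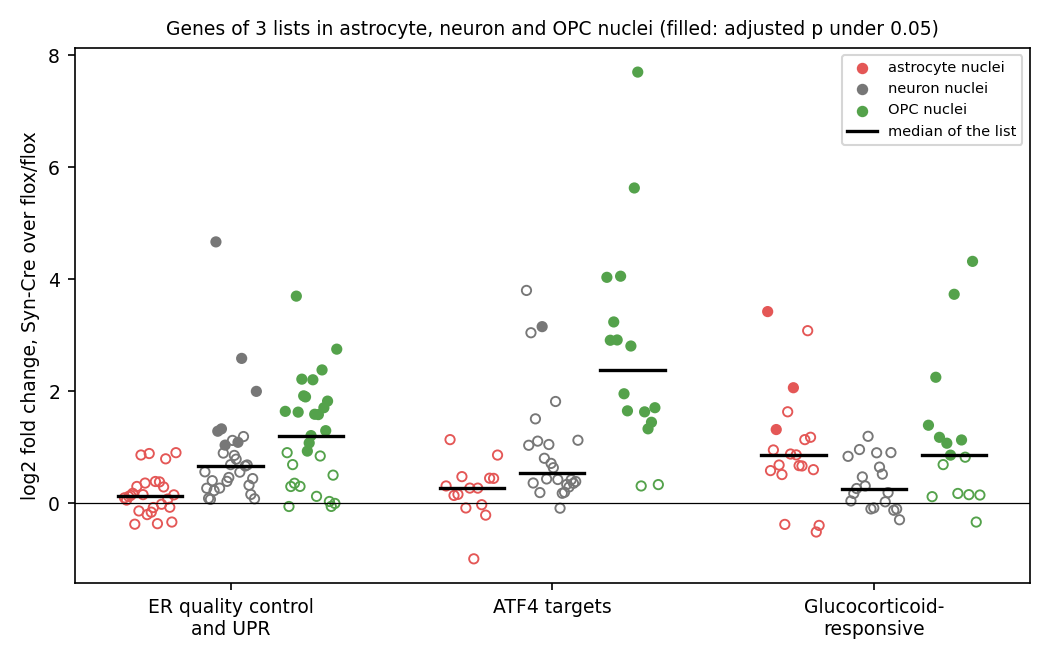
log2 fold change (Sel1L Syn-Cre over Sel1L flox/flox) of the tested genes of 3 lists in astrocyte, neuron and OPC nuclei, with filled points at an adjusted p under 0.05 and a bar at the median. Astrocyte medians are 0.131 for ER quality control, 0.271 for ATF4 targets and 0.865 for glucocorticoid-responsive genes, and OPC medians 1.21, 2.38 and 0.860.

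Lists of core astrocyte functions held no calls, where 0.922% of all genes were called, so 0 in lists this short is near that share. Among astrocyte markers outside the rule (20 tested), glutamate, GABA and glycine uptake (16), potassium, water and gap junction transport (19), receptors and calcium signalling (17), cholesterol and lipid transport (24) and glycogen, glucose and lactate (20), no gene passed by edgeR's quasi-likelihood test or DESeq2 over all members and all 4 libraries with the count filter, and the medians lay between -0.261 and 0.0296. Leaving out a library put the cholesterol median between -0.302 and 0.194 and the receptor median between -0.394 and -0.0777. The likelihood ratio test called 1 gene of the receptor list and 1 of the glycogen list, and the replicate block gave 1 lower in the first and 1 higher in the second. The receptor list also had 1 gene higher with at least 4 markers required, with no neuron marker UMI, or with no filter on low counts. At an unadjusted p under 0.05 the receptor list had 3 higher and 5 lower of 17 (6.09% and 4.78% of all genes), and the other 5 lists had 0 to 2 higher and 1 or 2 lower each. Of the 16 glutamate, GABA and glycine genes, 8 were lower and 2 higher in both Syn-Cre libraries than in both controls (20.6% and 20.3% of all genes). By that measure the other 5 lists had 4 to 6 lower and 4 or 5 higher each. Without Syn-Cre replicate 1 the receptor list had 1 gene higher and 2 lower and the cholesterol list 1 lower past the threshold, and without flox/flox replicate 2 the marker and potassium lists had 1 higher each. Reactive astrocyte genes were mostly under the count filter: 8 of 38 were tested, 0 passed by edgeR's quasi-likelihood or likelihood ratio test or by DESeq2, 3 were higher and 1 lower at an unadjusted p under 0.05, and the median was 0.400. That median was 0.689 and 0.928 without flox/flox replicates 1 and 2, where 10 and 11 genes were tested. It was 0.364 and 0.422 without Syn-Cre replicates 1 and 2. Gfap was at 168, 104, 184 and 179 CPM (0.40 ± 0.21, adjusted p = 0.545), with Syn-Cre just above flox/flox replicate 1. Agt, angiotensinogen, which is high in astrocytes outside the telencephalon, was at 23.96, 34, 34.8 and 48.9 CPM (adjusted p = 0.561). At this depth a simulated 2-fold change was recovered in 41.9% of genes and a 4-fold change in 94.7%. A 2-fold change was thus missed more often than found, and changes of that size or smaller may have gone undetected. The simulation gave every gene the same dispersion. Among secreted factors acting on synapses, 1 of 20 passed (0.682% of all genes higher), Sparc, a matricellular inhibitor of synapse formation (34.1, 43.3, 92.5 and 77.6 CPM, 1.17, adjusted p = 0.0318). The median of that list was -0.279, with 10 genes lower in both Syn-Cre libraries and 2 higher (20.6% and 20.3% of all genes), and 3 lower and 2 higher at an unadjusted p under 0.05 (4.78% and 6.09%). With a library left out the median lay between -0.302 (Syn-Cre replicate 1) and -0.143 (flox/flox replicate 2). Sparc did not pass by DESeq2 (adjusted p = 0.130), without oligodendrocyte RNA (0.0849), without flox/flox replicate 1 (0.183) or without Syn-Cre replicate 2 (0.259). The list still had 1 gene higher without flox/flox replicate 1, 2 higher without Syn-Cre replicate 1, and 2 higher and 1 lower with the replicate block. Etnppl, an ethanolamine-phosphate lyase that served in the rule and is therefore only described, was at 131, 207, 400 and 351 CPM. Of the other 7 genes of the rule, Gja1 was at 376, 369, 552 and 475 CPM and Aqp4 at 301, 218, 280 and 242 CPM.

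Several of the largest rises lay in genes of motile cilia, the beating axonemes of ependymal cells. Dnah12, an axonemal dynein, had 0, 0, 36 and 18 UMIs, at least 9.31-fold higher with 3 UMIs as the floor over both controls together, and Spag17, a central-pair protein, 0, 0, 34 and 12 UMIs, at least 7.93-fold higher. Cfap299 had 1, 0, 62 and 18 UMIs, a ratio of 41.4 (95% counting interval 7.22 to 1660). Nearly all of these UMIs sat in 17 nuclei (2, 1, 8 and 6) that carried 3 or more motile cilia genes: 31 and 16 of the 36 and 18 Dnah12 UMIs, 31 and 11 of those of Spag17, and 60 and 18 of those of Cfap299. Without those nuclei the 3 genes fell under the filter on low counts, while 89 of the 100 calls remained. Foxj1, the master regulator of these cilia, had 0, 1, 9 and 1 UMIs. Ttr, transthyretin of the choroid plexus, was at 168, 77.3, 258 and 354 CPM (1.28, adjusted p = 0.0482), and at 0.97 (adjusted p = 0.129) without them.

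Genes of meningeal fibroblasts made up a further group, in 19 nuclei (2, 0, 13 and 4) with 3 or more genes of that kind. Slc6a20a, a proline transporter, had 6, 3, 183 and 29 UMIs, of which those nuclei held 1, 0, 168 and 16, and Bnc2, a zinc-finger protein, had 3, 1, 72 and 19 UMIs. Both dropped below the filter without them, as did Adam12 and Bmp6. Ptgds, prostaglandin D synthase, abundant in leptomeninges, was at 105, 119, 352 and 341 CPM (1.64 ± 0.18, adjusted p = 5.605e-04), and those nuclei held 12, 0, 440 and 199 of its 114, 77, 849 and 321 UMIs. Without them its log2 fold change was 0.57 (adjusted p = 0.338), and that of the adhesion protein Sdk1 went from 1.67 to 0.98 (adjusted p = 0.352). The calls numbered 77 without the fibroblast nuclei, 98 without the ciliated nuclei, and 97 without all 59 nuclei with 3 or more genes of cilia, fibroblasts, microglia or vessels, with Zfhx3 and Fkbp5 as large as before in the first 2 of these (2.62 and 3.38, 2.63 and 3.43). Both lists were added after values were seen.

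The remaining large rises were low in level. F5, coagulation factor V, had 3, 0, 53 and 15 UMIs (ratio 11.7, counting interval 3.85 to 58.3), and Ankfn1 1, 1, 26 and 19 (ratio 11.6, 3.04 to 99.1). Dlk1, a noncanonical Notch ligand, was at 2.77, 3.09, 21.6 and 31.9 CPM (3.11, adjusted p = 0.0128), and the noncoding gene 2610307P16Rik at 6.45, 7.73, 37.7 and 53.1 CPM (2.65, adjusted p = 0.00618). Gm22146, at 1.84, 3.09, 24.5 and 30.8 CPM, lies inside Fkbp5 on the other strand and cannot be told apart from it. In all of these both Syn-Cre libraries exceeded both controls.

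Genes lower in Sel1L Syn-Cre astrocyte nuclei included a product of the oligodendrocyte lineage. Vcan, the proteoglycan versican made by OPCs, was at 94.0, 77.3, 12.9 and 19.1 CPM, without overlap and with a log2 fold change of -2.50 ± 0.27 (adjusted p = 5.605e-04). It was still called without the nuclei carrying oligodendrocyte RNA (-2.53, adjusted p = 0.0111). OPC nuclei held 1120, 1112, 705 and 938 CPM of it, and the defining OPC genes Olig1 and Olig2 had 15, 7, 12 and 7 and 13, 7, 9 and 2 UMIs in astrocytes. Ninj2, an adhesion protein, had 16, 18, 6 and 5 UMIs (-2.55, adjusted p = 0.0409). The summed oligodendrocyte marker levels given above moved in the same direction. The OPC sum did as well, but Vcan is among its 6 genes, so that sum is no separate sign. Without the nuclei carrying oligodendrocyte RNA, Ninj2 was under the filter on low counts.

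Further genes were also lower in Sel1L Syn-Cre astrocyte nuclei. Pipox, the peroxisomal oxidase of sarcosine and pipecolic acid, was at 36.9, 49.5, 9.13 and 7.44 CPM (-2.30 ± 0.33, adjusted p = 0.00618), and Lama3, a laminin alpha chain, at 79.3, 78.8, 23.6 and 5.31 CPM (-2.23, adjusted p = 0.0172). Ndp, the Frizzled-4 ligand norrin, was at 47.9, 37.1, 15.4 and 19.1 CPM (-1.36, adjusted p = 0.0482), and Wls, the cargo receptor for Wnt secretion, chosen after its values were seen, at 116, 91.2, 53.1 and 45.7 CPM (-1.07, adjusted p = 0.0327). Every Syn-Cre value in these 4 genes lay below every control value. Padi2, a protein arginine deiminase, fell by 1.34, Zfp804b, a zinc-finger protein, by 2.00, and Fam184b by 1.55 on the log2 scale, and the noncoding D030055H07Rik and AW047730 by 1.69 and 1.31, with adjusted p between 0.00947 and 0.0476. Inpp4b, a phosphoinositide phosphatase, was at 114, 97.4, 39.0 and 51 CPM in astrocytes (-1.27, adjusted p = 0.0181) and at 550, 488, 895 and 971 CPM in OPCs (0.85, adjusted p = 3.981e-05), opposite directions that differed by 2.11 log2 units (interaction, adjusted p = 1.126e-04). None of the falls in this paragraph passed without the nuclei carrying oligodendrocyte RNA: the adjusted p was 0.0639 for Pipox and Fam184b, 0.1065 for Lama3 and Wls, and between 0.152 (Padi2) and 0.314 (Inpp4b) for the other 5 that could be tested, and Zfp804b was under the filter on low counts. The log2 fold changes of these genes in that subset were close to those over all members, for example -2.39 for Pipox, -2.18 for Lama3, -1.19 for Wls and -1.30 for Inpp4b.

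The effects in astrocytes and OPCs were compared over 12079 genes, and 154 differed (1.27%), 84 with the larger value in astrocytes (0.695%) and 70 with the smaller (0.58%). Kcnb2, a delayed-rectifier potassium channel, was at 77.4, 72.6, 100 and 145 CPM in astrocytes and fell in OPCs (380, 398, 154 and 132 CPM), a difference of 2.10. Schip1, a scaffold protein, went the same way (117, 142, 159 and 224 against 473, 516, 221 and 254 CPM, 1.61). Neither passed in astrocytes alone, with adjusted p of 0.223 and 0.316. Eps15, an endocytic adaptor, was at 552, 465, 353 and 277 CPM in astrocytes (adjusted p = 0.121) and at 21.5, 25.3, 94.7 and 62.6 CPM in OPCs, a difference of -2.44. Against neurons, 1491 of 19060 genes had an unadjusted p under 0.05 and Kcnt1 alone passed, in a test that recovered 5% of simulated 2-fold and 72% of 4-fold differences.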

How the data were processed

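Nuclei of frozen cortex and hippocampus were sorted by FACS and sequenced with 10x Genomics 3' v3 chemistry, and per the labels the authors made UMI counts per gene and barcode with Cell Ranger 6.1.0 on GRCm38, per the submitters' processing notes. The deposited counts held 32286 features, Cre included, and 12599, 8481, 8173 and 7366 barcodes with 122870443, 76617523, 75227337 and 74082610 UMIs. Whether introns or strand were counted is not given in the sources used here.

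The members, gene lists and tests were chosen with earlier results of these data known. UMIs of members were summed per library and genes kept by filterByExpr were tested with edgeR 4.0.16 (quasi-likelihood, TMM, Benjamini-Hochberg over all genes, threshold 0.05), for each cell type alone and as a genotype by cell type interaction with library as a block. Replicates are separate mice. Neuron nuclei had 3 or more UMIs over Slc17a7, Gad1 and Gad2, at most 1 of the 8 markers, no Pdgfra and no Mog or Mag. OPC nuclei had Pdgfra with Cspg4, Sox10, Olig1 or Olig2 and the same exclusions, with at most 1 neuron UMI. Genes named were the 12 largest rises and 12 largest falls among calls with at least 20 UMIs and no overlap, the 5 smallest p in each direction of each interaction, and called members of the lists; others are marked, and 1 gene that met this rule is not reported here. Coordinates came from GENCODE, which named 32158 features.

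Doublets were not removed in the values reported; leaving out the highest Scrublet scores was an alternative. The other alternatives were DESeq2 1.42.0, the likelihood ratio and legacy tests, library size scaling, other filters, another prior count, thinning, a replicate block, each library left out, and other membership rules. Those on ependymal, fibroblast and oligodendrocyte RNA and on Etnppl were chosen after seeing the data. The self-test on simulated counts used the same functions. Its dispersion was the common value estimated from these libraries for each cell type, the same for every gene. Intervals cover counting error only.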

Additional observations from a re-analysis of the deposited data

Results flagged for a closer look

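The results here stand out because the genotype difference in astrocyte nuclei differed from that in another cell type of the same mice, by the interaction term of the edgeR quasi-likelihood test. Against neurons this was Kcnt1, with a difference of 2.65 log2 units. Against OPCs the 5 genes with the smallest p above were Zfhx3 (2.77), Kcnb2 (2.10), Sdk1 (2.31), Schip1 (1.61) and Top2a (9.87), and the 5 below were Nupr1 (-7.47), Eps15 (-2.44), Inpp4b (-2.11), Slc7a5 (-3.92) and Hif3a (-3.58), with adjusted p up to 0.00258 in the first 5 and 2.914e-04 in the others. Top2a had 3, 0, 14 and 0 UMIs in astrocyte nuclei and 65, 71, 0 and 0 in OPC nuclei, so its fitted value depends on the prior count and is no measure of size. Of the Sdk1 UMIs, 50 of 100 in Syn-Cre replicate 1 and 10 of 40 in replicate 2 sat in nuclei with fibroblast genes, and without those nuclei its difference between the genotypes in astrocytes was 0.98 (adjusted p = 0.352). Nupr1 had 1 and 0 UMIs in the Sel1L flox/flox OPC nuclei, and the same holds for it.

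Cre UMIs were present where the label has none: 309 in neuron nuclei of Sel1L flox/flox replicate 1, against 0 in replicate 2. Astrocyte nuclei of the same library held 2.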

How the results depend on the processing

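The 100 calls in astrocyte nuclei became 189 by the likelihood ratio test, 55 by DESeq2, 34 with 2 markers required, 57 without the highest Scrublet scores, 54 without nuclei with Agt, Zic1 or Zic4 UMIs and 9 without nuclei with oligodendrocyte RNA; fewer nuclei entered the last 3, and the cause was not tested. Leaving out a library gave 0 to 361 calls (0 without Sel1L Syn-Cre replicate 2). The interaction with neurons gave 42 calls by DESeq2, 25 with at least 10 UMIs in every library and 4 after thinning, against 1, and 0 without any library (edgeR; 1125 to 1312 genes at an unadjusted p under 0.05). The interaction with OPCs gave 24 by DESeq2 and 83 after thinning, against 154, and 105 to 265 without a library. The difference in share ranged from 2.58 to 5.28 points, and from 0.837 to 5.7 without a library. With the replicate block there were 208 calls, holding all 100; same-numbered libraries deviated together with r = 0.14 across genes (0.0225 without sex-linked genes) in 2 pairs, and since replicate 1 is male and replicate 2 female in each genotype, the block is also a block on sex. Of 1137 values of 49 named and called genes under the alternatives, 0 reversed and 252 lost the call, 49 of these without Sel1L Syn-Cre replicate 2. The 664641 UMIs of the smallest library limit what low genes can show.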

Other observations

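Further lists were tested in astrocyte nuclei and held no call by edgeR's quasi-likelihood or likelihood ratio test or by DESeq2. Thyroid hormone handling, which includes the deiodinase and transporters through which astrocytes supply active hormone, had 7 genes tested with a median log2 fold change of 0.222 (1 higher at an unadjusted p under 0.05). Immediate early genes had 7 tested with a median of 0.441 (2 higher). Without Sel1L Syn-Cre replicate 1, 4 of 9 were higher past the threshold (222 of all 11266 genes there) with a median of 1.2, and without Sel1L Syn-Cre replicate 2 none of 8, with a median of -0.167. The 8 neuron markers moved the same way, with medians of 0.624 and -0.121 in these settings and 0.279 over all 4 libraries. Their summed level was highest in Sel1L Syn-Cre replicate 2 (2910 CPM), and the part of neuron RNA in the immediate early genes was not tested. Notch, Shh, BMP and FGF signalling had 26 with a median of -0.122 (3 higher, 2 lower). Telencephalic astrocyte genes (5 tested, median 0.236, 1 lower) and non-telencephalic ones (6 tested, median -0.0297, 1 lower) also had no call.

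At 2000 UMIs per nucleus, some receptors and junction genes, chosen after values were seen, were detected in different shares of astrocyte nuclei. Grm3, the metabotropic glutamate receptor of mature astrocytes, was in 89.2%, 81.8%, 75.4% and 65.7% of nuclei, lower in both Sel1L Syn-Cre libraries. Gjb6, the gap junction protein connexin 30, was in 22.6%, 30.8%, 43.7% and 37.7%, and Thbs4, a thrombospondin, in 5.38%, 2.52%, 10.6% and 9.66%, both higher in the Sel1L Syn-Cre libraries. Shares in neuron nuclei, where Gjb6 and Thbs4 should be lacking, were at most 0.107% and 0.237%. Grm3 was in 34.6%, 39.0%, 33.3% and 29.2% of thinned neuron nuclei, also lower in both Sel1L Syn-Cre libraries, by 5.55 points against 15.0 in astrocytes. Each difference has an exact permutation p of 0.333, the smallest that these 4 mice allow. Summed per library over all members, the receptor list, with Grm3, and the list of astrocyte markers, with Gjb6, had 0 calls (edgeR quasi-likelihood test). Before thinning the shares of Grm3 were 93.1%, 89.7%, 83.2% and 77.8%, those of Gjb6 32.0%, 49.1%, 57.5% and 55.1%, and those of Thbs4 6.54%, 3.43%, 14.2% and 15.1%.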
